A study of Saccharomyces cerevisiae with 4 samples.

Results

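HRI1 and 5 genes whose protein products are tied to Hri1, namely HRR25, SEC62, SEC63, SEC66 and SEC72, were followed in budding yeast on Affymetrix arrays of the wild-type strain W303-1A and of the long-lived SSG1-1 mutant. The 6 genes were taken by name from the platform annotation, out of 5449 S. cerevisiae genes with a named probe set, of which 5330 were tested. Each has 1 probe set, all 6 were tested, and all 6 were called present on the array numbered 2 of both strains. HRI1 was picked because its probe set had the largest signal difference between the strains. The other 5 were picked for what is known of their proteins, with the results of these arrays already in view. They are called partners below, although not all of their proteins are said to bind Hri1 itself. The strain differences of the 6 genes are therefore given as a description, without a test. Each strain had 2 arrays, numbered 1 and 2. The W303-1A cells (wild type) and the SSG1-1 cells (labelled only as an SSG1-1 mutant) were treated alike, with strains kept at 25 °C in YPD and then grown for 12 h in SDC medium of pH 6.0 to early-log phase. The labels do not say which gene the SSG1-1 mutation lies in, and no probe set is named SSG1, so the mutation itself was not checked. Nor do they state that separate cultures were used for the arrays of 1 strain, so the errors below may be technical.

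Hri1 is a small protein of unknown function that binds the protein kinase Hrr25 and Sec72. Hrr25 is a casein kinase 1 of the delta and epsilon type, with roles in ribosome assembly, vesicle traffic, selective autophagy and meiosis. Sec72 belongs, with Sec62, Sec63 and Sec66 (also called Sec71), to the Sec62-Sec63 complex of the endoplasmic reticulum (ER). This complex joins the Sec61 channel and lets finished proteins enter the ER after translation. Sec63 carries a J domain, which recruits the lumenal Hsp70 Kar2, and Sec62 contacts the channel. Sec66 is a membrane subunit, and Sec72 sits on its cytosolic side and binds cytosolic chaperones.

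The deposited median signal of the S. cerevisiae probe sets was between 874 and 1171 on the 4 arrays. The arrays had thus not been brought to a common level, and signals below are after quantile normalization, in arbitrary units, unless called deposited. The median log2 difference of all tested probe sets, mutant minus wild type, was -0.02 after this step and -0.15 in the deposited values, so small positive differences below can be negative there. The array also carries probe sets for fission yeast genes, and these include unrelated or distant genes that share the names hri1, sec62, sec63, sec66 and sec72. Their deposited signals were between 0.4 and 17.6 and all were called absent on the arrays numbered 2, so they show the level of stray hybridization. A probe set measures its own gene across arrays, and levels of different genes are not compared here.

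HRI1 (YLR301W, probe set 1775450_at) was the gene that set the strains apart most. W303-1A arrays gave signals of 922 and 716, and SSG1-1 arrays gave 7167 and 7760. Each SSG1-1 array was far above each wild-type array, and the strains did not overlap. The lowest mutant signal was 7.78 times the highest wild-type signal, and the highest mutant signal was 10.8 times the lowest wild-type signal. The log2 difference, mutant minus wild type, was 3.20 ± 0.16 (SE, n = 2 arrays per strain), or 9.18-fold. In the deposited values the signals were 1044 and 706 in W303-1A against 6567 and 7662 in SSG1-1. In RNA from a whole culture, a rise in every cell and a larger rise in some cells cannot be told apart.

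**Figure D1:**
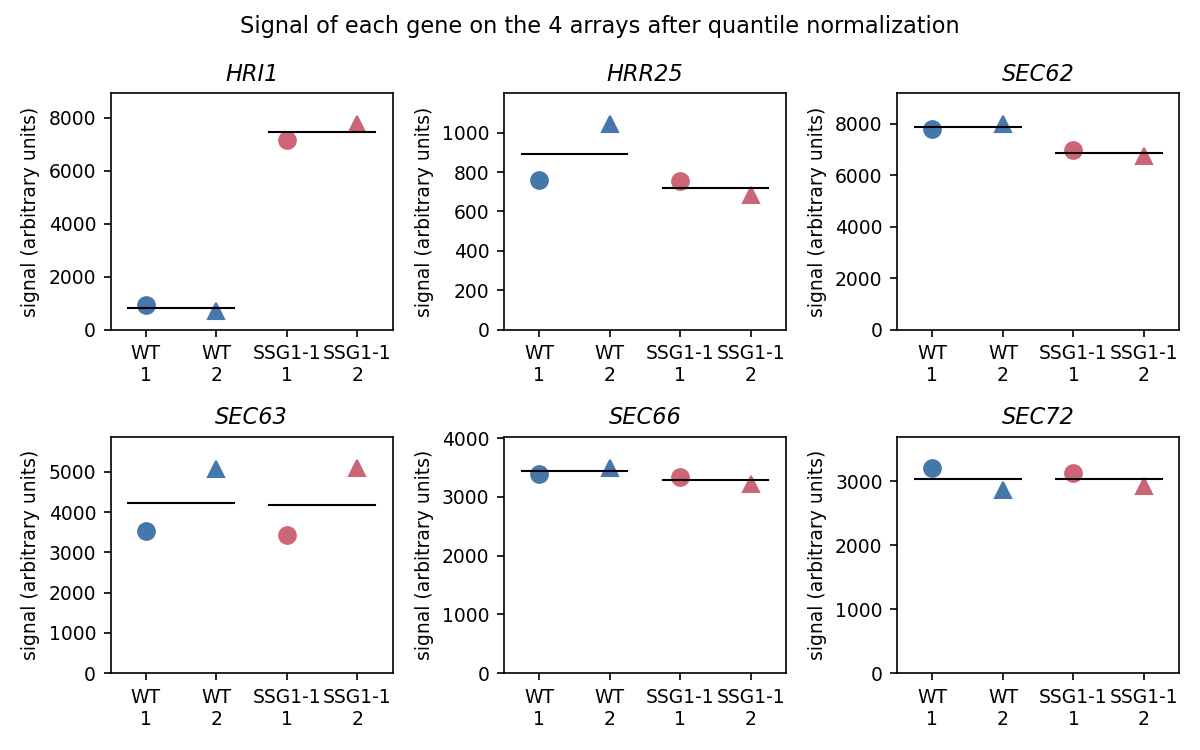
Signal after quantile normalization (arbitrary units, linear axis from 0) of the 6 genes on each array; circles are arrays numbered 1, triangles arrays numbered 2, blue is wild type, red is SSG1-1 and black lines are geometric means of the 2 arrays. HRI1 goes from 922 and 716 to 7167 and 7760, whereas the vertical axes of the other 5 panels show far smaller shifts between strains.

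The call rule for the whole table was an adjusted p under 0.05 in limma. Limma fits a linear model to each probe set and shares information on the variance across probe sets. The rule called 1 of 5376 probe sets higher (0.0186%), which was HRI1, and 0 lower (0%). Any set of other genes thus has 0 calls in this fit, and nothing is read from such counts below. At an unadjusted p under 0.05, limma gave 146 higher (2.72%) and 97 lower (1.80%). Since HRI1 was chosen on this contrast, nothing is read from its call, and none of the 5 partners was called in this fit, which has no block for the array number. Within the arrays numbered 1 the HRI1 difference was 2.96 on the log2 scale, and within those numbered 2 it was 3.44. The wild-type arrays differed from each other by 0.36 (number 1 minus number 2) and the mutant arrays by -0.11. Leaving out 1 array at a time kept the difference between 3.02 and 3.38.

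**Figure D2:**
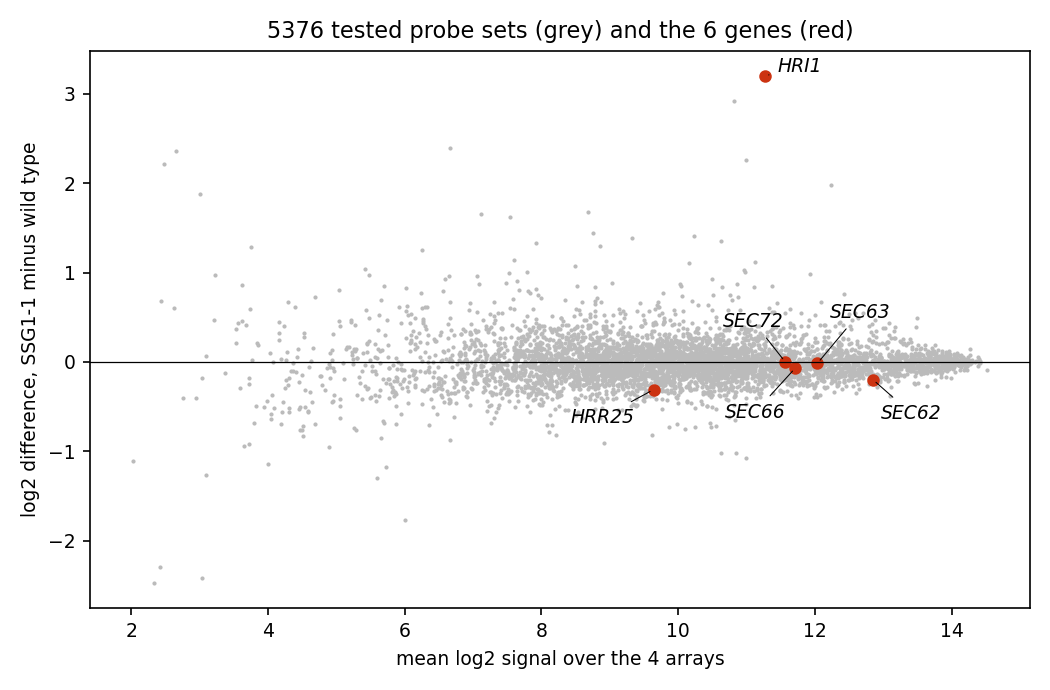
Log2 difference between strains (SSG1-1 minus wild type) against the mean log2 signal of the 4 arrays, for 5376 tested probe sets in grey and the 6 genes in red. HRI1 stands at 3.20, above every other tested probe set, and the 5 partners lie between -0.31 and -0.0014.

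The genes whose pattern over the 4 arrays was most like that of HRI1 were found by the distance between log2 signals after each gene's own mean was removed. The nearest was HXK1, a hexokinase gene repressed by glucose, at a distance of 0.40 log2 units. HXT7, a high-affinity hexose transporter gene, followed at 0.99. TMA10 was at 1.18, HXT4, another hexose transporter gene, at 1.39, and ADR1, the activator of glucose-repressed genes, at 1.55. The median distance of the other tested probe sets was 3.24. These distances rest on 4 arrays and on the contrast that picked HRI1, so they describe the arrays only. The HXT7 probe set carries a suffix for sets that can pick up related genes, so its value is uncertain for that gene alone.

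The measured genes beside HRI1 on chromosome XII did not share the size of its difference. Of the 5 annotated genes on either side in the reference gene table (assembly R64), 6 had a probe set, with log2 differences between -0.21 and 0.49. Limma called 0 of them, but it called only HRI1 out of 5376 probe sets (0.0186%), so nothing is read from that. EXG1, the next gene on one side, encodes an exo-glucanase of the cell wall. Its signal was 14846 and 14623 in W303-1A against 13780 and 14566 in SSG1-1, a log2 difference of -0.06 ± 0.06 (SE, n = 2 per strain). The strains did not overlap for EXG1 after normalization, but they did in the deposited values and after median centring.

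On the other side, the nearest gene with a probe set was MET17, which encodes the enzyme that makes homocysteine from sulfide. MET17 had signals of 10465 and 9081 in W303-1A against 14406 and 13031 in SSG1-1. Each mutant array was higher, with a log2 difference of 0.49 ± 0.10 (SE, n = 2 per strain). Its unadjusted 95% interval ran from 0.24 to 0.74, and 97.1% of all tested probe sets had a lower difference. The difference was 0.46 within number 1 and 0.52 within number 2, far below that of HRI1. ACO1, the aconitase gene, was at -0.04 ± 0.09. ECM38, a gamma-glutamyltranspeptidase gene, was at 0.03 ± 0.16, YHC1, a splicing factor gene, at -0.21 ± 0.14, and YLR297W at -0.15 ± 0.21. ECM38, ACO1 and YLR297W overlapped between the strains, and YHC1 was lower on both mutant arrays. SEC72 lies on the same chromosome, 8 annotated genes away from HRI1.

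**Figure D3:**
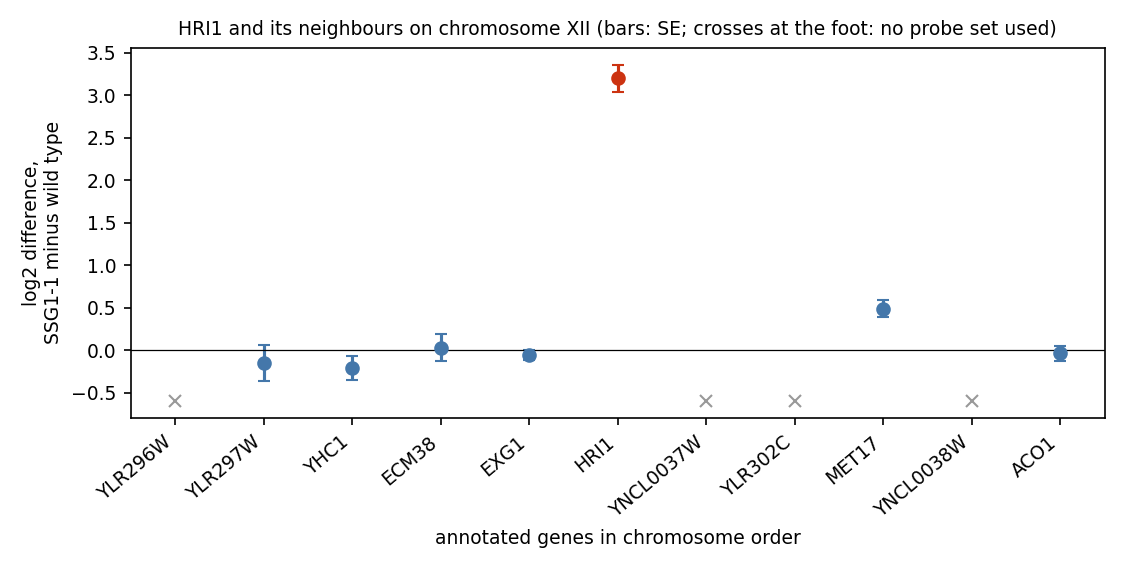
Log2 difference between strains (SSG1-1 minus wild type) of HRI1 (red) and of the 5 annotated genes on either side of it (blue) in chromosome order, with bars for the SE; crosses mark genes without a probe set used here. HRI1 stands alone at 3.20, and MET17 is the highest of its neighbours at 0.49.

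HRR25 (YPL204W, probe set 1770862_at) had signals of 760 and 1042 in W303-1A against 755 and 683 in SSG1-1. The mutant arrays lay below both wild-type arrays, but the upper mutant array and the lower wild-type array were almost equal. The log2 difference was -0.31 ± 0.20 (SE, n = 2 per strain), and its 95% interval, not adjusted for the number of genes, ran from -0.82 to 0.20. The difference came from the arrays numbered 2, at -0.61, and was -0.0095 within number 1. Without the wild-type array numbered 2 it was -0.08, and without the one numbered 1 it was -0.54. The difference between the strains was no larger than that between the wild-type arrays, which stood 0.46 apart on the log2 scale. In the deposited values HRR25 was at -0.47, where the median of all tested probe sets was -0.15. Its neighbours PGC1 (0.13 ± 0.11) and TPK2 (0.15 ± 0.15) overlapped between strains.

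The other casein kinase 1 genes of budding yeast are YCK1, YCK2 and YCK3, whose products are anchored to membranes. Of these 3 genes limma called 0, and their median log2 difference was 0.02, or -0.15 in the deposited values, against -0.02 and -0.15 for all tested probe sets. YCK1 had signals of 1004 and 1044 in W303-1A against 1207 and 1094 in SSG1-1, a difference of 0.17 ± 0.14 (SE, n = 2 per strain). Both mutant arrays were higher after normalization, while the strains overlapped in the deposited values. YCK2 was at 0.02 ± 0.15 and YCK3 at 0.01 ± 0.18, and both overlapped. YCK1 and YCK2 are close paralogs, so their probe sets may share signal.

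Genes for substrates and partners of Hrr25 were listed as well, and 17 of 18 had a probe set. Limma called 0 of them higher and 0 lower. Their median log2 difference was -0.03, and the range was from -0.44 to 0.35. The mutant arrays were both below the wild-type arrays for 6 genes (35.3%) and above for 2 (11.8%), against 18.0% and 14.0% of all tested probe sets. After median centring in place of quantile normalization 4 were below (23.5%) and 3 above (17.6%), against 13.9% and 14.8% of all tested probe sets. In the deposited values 5 were below (29.4%) and 1 above (5.88%), against 22.3% and 3.40%. KTI12, a regulator of the Elongator complex, had signals of 2194 and 1684 in W303-1A against 1573 and 1325 in SSG1-1 (log2 difference -0.41 ± 0.19 SE, n = 2 per strain). LTV1, a factor of small ribosomal subunit assembly that Hrr25 phosphorylates, had 828 and 883 in W303-1A against 615 and 763 in SSG1-1, a difference of -0.32 ± 0.17. On the upper side stood 2 receptor genes of selective autophagy. ATG34 was at 0.35 ± 0.17, with signals of 201 and 203 against 276 and 242, and ATG19 was at 0.29 ± 0.14. The strains overlapped for ATG19 in the deposited values.

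SEC62 (YPL094C, probe set 1778167_at) was the subunit gene of the Sec62-Sec63 complex with the largest difference between strains in size. Its signal was 7794 and 7988 in W303-1A against 6991 and 6773 in SSG1-1. Each mutant array was lower, and after quantile normalization the arrays of each strain were close to each other. After median centring the mutant arrays were further apart, at 7528 and 6347 against 7724 and 7837 in W303-1A. Both were still lower there, the one numbered 1 by a small margin. The log2 difference was -0.20 ± 0.07 (SE, n = 2 per strain), 12.8% lower in the mutant, with an unadjusted 95% interval from -0.39 to -0.0053. It was -0.16 within number 1 and -0.24 within number 2. Of all tested probe sets, 15.3% had a lower difference. EEB1 and NOG1, the genes on either side, were at 0.24 ± 0.15 and 0.03 ± 0.09, and both were higher on both mutant arrays after normalization. EEB1 overlapped between the strains in the deposited values, and NOG1 did so there and after median centring.

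SEC63 (YOR254C, probe set 1776003_at) followed the array number and not the strain. Its signal was 3519 on the wild-type array and 3426 on the mutant array numbered 1, and 5076 on the wild-type array and 5098 on the mutant array numbered 2. Both arrays numbered 1 were thus lower, and the strains overlapped. Number 1 minus number 2 was -0.53 in the wild type and -0.57 in the mutant on the log2 scale, whereas the difference between strains was -0.04 within number 1 and 0.0063 within number 2. What the number stands for is not given, and its part in the signal was not tested. Over all arrays the strain difference was -0.02 ± 0.26 (SE, n = 2 per strain), with an unadjusted 95% interval from -0.69 to 0.66. That interval is the widest of the 5 partners. It comes from a fit that takes no account of the array number, so the gap between numbers widens it. In that fit a change of the size seen for SEC62 could not be told from none for SEC63. Without 1 array the difference went from -0.30 to 0.27. The neighbour NAT5 was at -0.05 ± 0.09, and OSW1 was too dim to weigh, at 22.1 and 25.6 in W303-1A against 7.14 and 16.3 in SSG1-1.

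SEC66 (YBR171W, probe set 1774666_at) had signals of 3387 and 3494 in W303-1A against 3337 and 3223 in SSG1-1. The mutant arrays were lower, by a small margin. The log2 difference was -0.07 ± 0.10 (SE, n = 2 per strain), or 4.66% lower, with an unadjusted 95% interval from -0.33 to 0.20. It was -0.02 within number 1 and -0.12 within number 2. The neighbours were at 0.08 ± 0.14 (NPL4) and -0.22 ± 0.14 (SMY2).

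SEC72 (YLR292C, probe set 1776846_at), the Sec subunit that binds Hri1, had signals of 3213 and 2869 in W303-1A against 3136 and 2933 in SSG1-1. The strains overlapped, with both mutant arrays between the wild-type arrays. The log2 difference was -0.0014 ± 0.12 (SE, n = 2 per strain), and the unadjusted 95% interval, from -0.31 to 0.31, leaves room for a level between 19.4% lower and 23.8% higher. It was -0.03 within number 1 and 0.03 within number 2, so its sign is not settled, and it was 0.0057 after median centring. The gene next to it, GCD7, was at -0.11 ± 0.08, and GSP1 on the other side was at -0.03 ± 0.05.

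**Figure D4:**
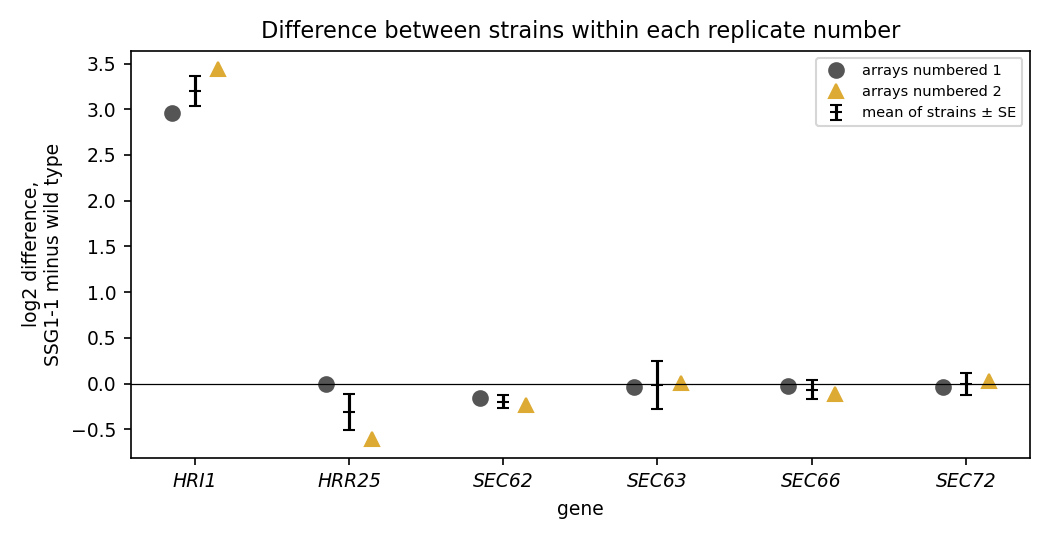
Log2 difference between strains (SSG1-1 minus wild type) of each gene within the arrays numbered 1 (circles) and within those numbered 2 (triangles), with the mean difference and its SE in black. HRI1 is high in both numbers at 2.96 and 3.44, HRR25 is at -0.0095 in number 1 and -0.61 in number 2, and the 4 SEC genes lie between -0.24 and 0.03.

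Across the 6 genes, the mutant arrays were both above the wild-type arrays for 1 gene and both below for 3, and 2 overlapped, while 14.0% of all tested probe sets were above and 18.0% below. These counts were the same in the deposited values and after median centring. Over all tested probe sets, 183 were above (3.40%) and 1198 below (22.3%) in the deposited values. After median centring 798 were above (14.8%) and 745 below (13.9%), in place of 754 and 968. Nothing is read from the 3 that were lower, since the contrast was known when the genes were chosen.

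Other genes of ER entry were described by lists, which were also drawn up with earlier results of these arrays known. The channel list held SEC61, SBH1 and SSS1 and the parallel channel genes SSH1 and SBH2. All 5 were tested and limma called 0. Their median log2 difference was -0.06 and the range was from -0.08 to -0.0089. SEC61, the channel pore gene, had signals of 10700 and 11098 in W303-1A against 9809 and 10765 in SSG1-1, which overlap. SBH2 was the single channel gene below on both mutant arrays, at -0.06 ± 0.07 (20%, against 18.0% of all tested probe sets), and it overlapped after median centring. In the deposited values 3 of the 5 were below (60%, against 22.3%).

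The signal recognition particle and its receptor bring nascent proteins to the channel during translation, in parallel with the route of the Sec62-Sec63 complex. Limma called 0 of these 8 genes in either direction. The median log2 difference of the list was -0.19, from -0.23 among arrays numbered 1 and -0.11 among those numbered 2. Both mutant arrays were below for 4 genes (50%) and above for 1 (12.5%), against 18.0% and 14.0% of all tested probe sets. After median centring these counts were the same, against 13.9% and 14.8%, and in the deposited values 5 were below and 0 above, against 22.3% and 3.40%. YKL154W, which encodes the beta subunit of the receptor, had signals of 2535 and 2754 in W303-1A against 2174 and 2120 in SSG1-1, a difference of -0.30 ± 0.12 (SE, n = 2 per strain). SRP14 was at -0.22 ± 0.13. YDR292C, the gene of the alpha subunit of the receptor, stood on the opposite side at 0.11 ± 0.13.

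The remaining targeting and processing lists gave 0 calls as well. Of 7 genes for the GET and SND routes, which insert tail-anchored and other membrane proteins, 3 were below on both mutant arrays (42.9%, against 18.0% of all tested probe sets) and 0 above (against 14.0%), with a median of -0.09. After median centring 2 of the 7 were below, against 13.9%. In the deposited values 3 were below (42.9%) and 0 above, against 22.3% and 3.40%. Examples were GET1 at -0.17 ± 0.11 (SE, n = 2 per strain) and GET2 at -0.15 ± 0.10. GET2 overlapped between the strains after median centring, and GET1 did not. The 4 signal peptidase genes had a median of 0.0080, or -0.15 in the deposited values. SPC1 was above on both mutant arrays at 0.08 ± 0.11 (25%, against 14.0% of all tested probe sets), and 0 were below (against 18.0%). In the deposited values SPC1 overlapped between the strains. The 9 oligosaccharyltransferase genes had a median of -0.05, with 3 below (33.3%) and 0 above, against 18.0% and 14.0% of all tested probe sets. STT3, the catalytic subunit gene, was at -0.21 ± 0.11 and OST3 at -0.16 ± 0.10. After median centring 1 of the 9 was below (11.1%, against 13.9%), which was STT3, and OST3 overlapped between the strains. In the deposited values 3 were below (33.3%) and 0 above, against 22.3% and 3.40%.

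Folding in the ER and its stress response, which depend on what the channel delivers, were described with 15 genes, of which limma called 0. The median log2 difference was -0.08, with 2 genes below on both mutant arrays (13.3%) and 1 above (6.67%), against 18.0% and 14.0% of all tested probe sets. In the deposited values 5 were below (33.3%) and 0 above, against 22.3% and 3.40%. KAR2, the Hsp70 that Sec63 recruits and a classic target of the unfolded protein response, had signals of 14676 and 14428 in W303-1A against 12819 and 14130 in SSG1-1 (log2 difference -0.11 ± 0.07 SE, n = 2 per strain). Its arrays overlapped after median centring. SCJ1, a lumenal J-protein gene, was at -0.30 ± 0.14, and SIL1, a nucleotide exchange factor for Kar2, at 0.08 ± 0.13. HAC1 and IRE1, the factor and the sensor of the unfolded protein response, were at -0.05 ± 0.16 and 0.06 ± 0.16 and overlapped between strains.

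Cytosolic chaperones of the Hsp70 and Hsp40 families, some of which hand proteins to the ER, were the only list here with a gene past 0.5 on the log2 scale. SSA1 had signals of 2560 and 1930 in W303-1A against 4448 and 2774 in SSG1-1. Both mutant arrays were higher, with a difference of 0.66 ± 0.27 (SE, n = 2 per strain), but limma did not call it and its arrays overlapped in the deposited values. SSA1 and SSA2 are near-identical paralogs, so their probe sets may share signal. SSA2 was at 0.08 ± 0.06, while the stress-induced SSA4 and SSA3 were below on both mutant arrays at -0.21 ± 0.16 and -0.12 ± 0.16. SSA3 overlapped between the strains in the deposited values and after median centring, whereas SSA4 stayed below in both. The median of the 6 genes was 0.08, or -0.052 in the deposited values, with 3 above (50%) and 2 below (33.3%), against 14.0% and 18.0% of all tested probe sets, and limma called 0. The counts changed with the scaling. In the deposited values 0 were above and 1 below (16.7%), against 3.40% and 22.3% of all tested probe sets. After median centring 2 were above (33.3%) and 1 below (16.7%), against 14.8% and 13.9%.

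ER-associated degradation, which removes misfolded ER proteins, had a median of -0.04 over 12 genes and 0 calls. UFD1 (-0.18 ± 0.16) and USA1 (-0.05 ± 0.13) were below on both mutant arrays, UBC7 (0.07 ± 0.09) was above, and the other 9 overlapped. These shares, 16.7% below and 8.33% above, stand against 18.0% and 14.0% of all tested probe sets. In the deposited values UFD1, USA1 and UBC7 overlapped, and 3 other genes were below (25%) and 0 above, against 22.3% and 3.40%. Over the 86 genes of all lists limma called 0, and both mutant arrays were below for 23 (26.7%) and above for 10 (11.6%), against 18.0% and 14.0% of all tested probe sets. After median centring the counts were 16 below (18.6%) and 11 above (12.8%), against 13.9% and 14.8%. In the deposited values they were 28 below (32.6%) and 1 above (1.16%), against 22.3% and 3.40%.

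**Figure D5:**
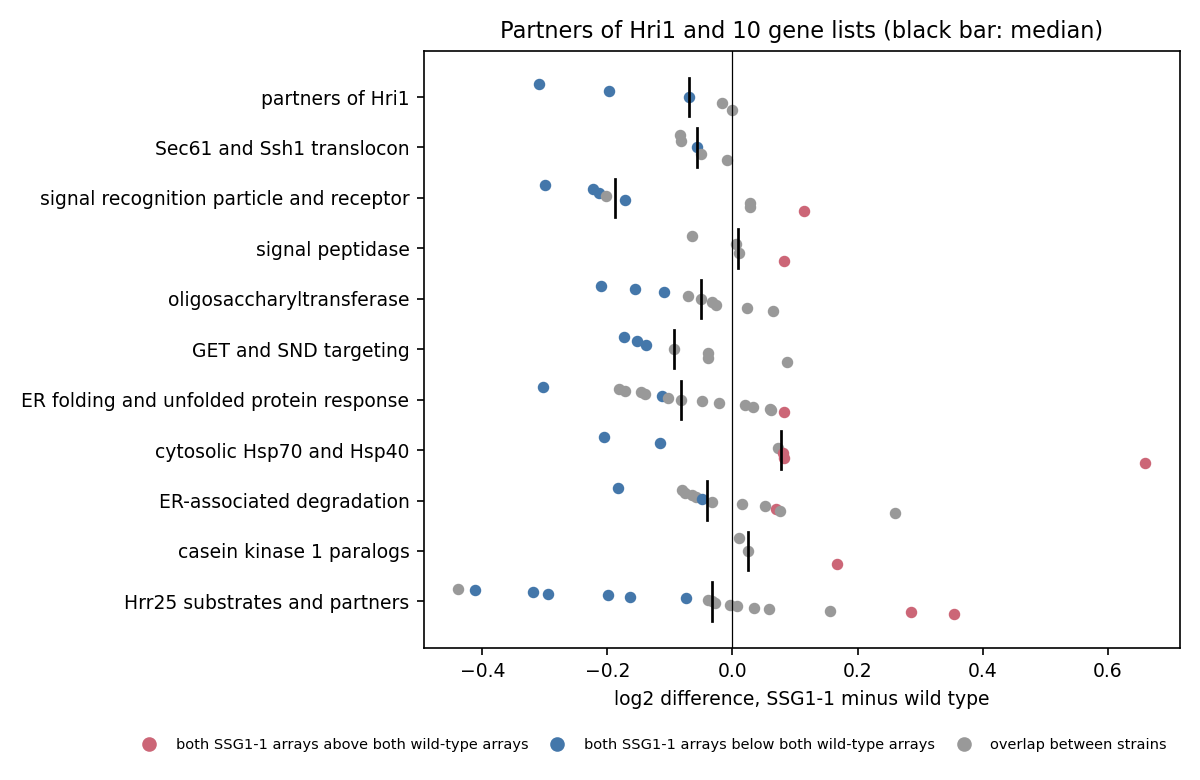
Log2 difference between strains (SSG1-1 minus wild type) of HRR25, SEC62, SEC63, SEC66 and SEC72 (row labelled partners of Hri1) and of each tested gene of the 10 lists; red points have the SSG1-1 arrays above both W303-1A arrays, blue points have them below both, grey points overlap, and black bars are medians. List medians lie between -0.19 and 0.08, and SSA1 at 0.66 is the most distant point.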

How the data were processed

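Biotin-labelled cRNA from 500 ng of total RNA was hybridized to 4 one-colour arrays, per the labels' protocols. Each deposited value is the linear signal intensity of 1 probe set on 1 array. The submitters' processing notes name GCOS and the deposited table's name gives MAS5. For scaling, background steps and genome build, the sources used here give nothing. In that second table, 4 columns have headers without a sample or strain and were left out, and the deposited detection calls used come from 1 array per strain.

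Gene names came from the platform annotation and the R64 gene table. Signals under 0.1 were set to 0.1, log2 signals of all 10928 probe sets were quantile normalized, and 5376 of 5498 S. cerevisiae probe sets with a present call in either strain were kept. Differences, SEs and 95% intervals come from limma 3.58.1 in R 4.3.3 (lmFit, eBayes with a mean-variance trend, Benjamini-Hochberg, threshold 0.05). The number of arrays limits the precision, and the median SE was 0.16. The fit was tested on simulated data of 5376 probe sets for this comparison. Changes of 1 log2 unit were recovered at 49.4% and those of 2 at 90.9%, with 6.8 false calls per run. The simulation changed 200 probe sets and gave same-numbered arrays no shared deviation, unlike the arrays here. These rates therefore need not hold for the real fit, where HXK1 at 2.92 was not called. Same-numbered arrays deviated together (correlation 0.634 across probe sets), but what a number marks is not stated in the labels, so no block was used.

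The members and lists were chosen with earlier results of these data known. Named genes are the 6 members, the neighbours with a probe set, the 5 patterns nearest to HRI1 and, per list, up to 2 genes at each end among those whose strains do not overlap. SEC61, HAC1, IRE1, YCK2 and YCK3 were added after their values were seen. SND1 had no named probe set, 1 further listed gene is not reported here, and ENV10 is SND2 under another name. Alternatives were other scalings, filters, floors and variance models, a replicate block, and leaving out each array.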

Additional observations from a re-analysis of the deposited data

How the results depend on the processing

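The precision is limited by 2 arrays per strain. Among 7 alternatives that leave out no array, scaling moved the differences and the replicate block moved the calls. In the deposited values, where all tested probe sets had a median log2 difference of -0.15, SEC62 was at -0.33, SEC66 at -0.24 and SEC72 at -0.16. The list medians there were -0.36 for the signal recognition particle, -0.15 for signal peptidase, -0.20 for oligosaccharyltransferase, -0.26 for GET and SND, -0.22 for ER folding, -0.052 for cytosolic Hsp70 and Hsp40, -0.18 for ER-associated degradation, -0.15 for casein kinase 1 paralogs and -0.18 for Hrr25 substrates, so much of the move is that shift. The degradation list was at -0.024 after median centring. HRI1 stayed between 3.05 and 3.21 under these 7 alternatives. The limma count of probe sets called higher was 6 in the deposited values and 3 after median centring. It was 0 without the mean-variance trend, where HRI1 lost its call with its difference at 3.20. With the replicate number as a block, 427 of the 5376 tested probe sets were called higher and 401 lower. HRR25 and SEC62 were among those called lower with the block and were not called without it. SEC63, SEC66 and SEC72 were not called in either fit. Nothing is read from these calls, since the contrast was known when the genes were chosen. The HRR25 difference was -0.0095 within number 1 and -0.61 within number 2. A block that holds 1 array of each strain leaves every difference as it is by construction and changes only the error. The labels do not say that the number pairs arrays, and the cause of the change in counts was not tested. No gene of the 6 had another named probe set, so that alternative gave no value.

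Leaving out 1 array at a time gave 2 to 4 probe sets called higher and 0 lower. HRI1 was between 3.02 and 3.38, HRR25 between -0.54 and -0.08, SEC62 between -0.22 and -0.17, SEC63 between -0.30 and 0.27, SEC66 between -0.09 and -0.04 and SEC72 between -0.08 and 0.08. List medians were between -0.13 and 0.04 for the channel, -0.28 and -0.07 for the signal recognition particle, -0.0080 and 0.05 for signal peptidase, -0.17 and 0.039 for oligosaccharyltransferase, -0.14 and -0.072 for GET and SND, -0.16 and 0.03 for ER folding, -0.020 and 0.11 for Hsp70 and Hsp40, -0.025 and 0.016 for degradation, -0.11 and 0.16 for casein kinase 1 paralogs, and -0.16 and -0.0012 for Hrr25 substrates.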
